A study of Arabidopsis thaliana with 4 samples.

Results

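The 6 DNA replication genes described here, part of the 156 genes in the deposited table of transcripts up-regulated in *msil2/4* and of 234 genes in the up- and down-regulated tables together, had 3.33 to 4.11 times as much mRNA, by the ratio of mean values, in basal stems of the double mutant as in those of wild-type plants. They are *MCM2* (AT1G44900), *MCM7* (AT4G02060), *PCNA1* (AT1G07370), *RPA1B* (AT5G08020), *RPA1D* (AT5G61000) and *RPA2A* (AT2G24490). By the values that the authors computed per genotype, the ratio was smaller for each of the 6. They were chosen by their presence in that table, which the authors had made from these same libraries with limits of 1.5 on the log2 fold change and, by the heading of the table, 0.05 on the P value. The paper gives the second limit as a false discovery rate. The difference between genotypes is therefore given as a description, with no test. The mRNA came from 2 libraries of *msil2/4*, a double mutant with a single T-DNA insertion allele in each of the Musashi-like genes *MSIL2* and *MSIL4*, and 2 libraries of Col-0, the wild type. The labels call the mutant genotype a knockdown. By RT-PCR and western blot, the paper found neither full-length *MSIL* mRNA nor MSIL protein in its insertion lines. Both genotypes were untreated and grown in long days, and RNA was taken from the base of fully grown inflorescence stems. Musashi-like proteins are RNA-binding proteins related to the Musashi proteins of animals, which act in translational control.

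MCM2 and MCM7 are subunits of the MCM2-7 ring, the helicase that is loaded at replication origins and unwinds DNA ahead of the fork. PCNA1 is a sliding clamp that encircles DNA and holds the replicative polymerases on the template, and RPA, a complex of large, middle and small subunits, coats the single strands that unwinding exposes. In plants these genes are known as markers of cells in or near S phase, such as those of meristems and cambium. Many of them are known targets of E2F transcription factors.

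*MCM2*, on chromosome 1 from 16970214 to 16974753 (plus strand, TAIR10.1), was at 9.05 and 17.8 RPKM in the *msil2/4* libraries, against 3.92 and 3.98 RPKM in the Col-0 libraries. RPKM scales reads to the length of the transcript and to the number of mapped reads of the library, so levels can be set side by side between genes. Both mutant values lay above both wild-type values, and the mutant replicates differed from each other far more than the wild-type ones. The means were 13.4 ± 6.18 RPKM in *msil2/4* and 3.95 ± 0.0424 RPKM in Col-0 (SD, n = 2 each). The log2 difference, on the scale of log2(RPKM + 1) used throughout for differences, was 1.47 with a standard error of 0.41 from limma.

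*MCM7*, also known as *PROLIFERA*, on chromosome 4 from 900636 to 905591 (plus strand), was at 9.54 and 18.9 RPKM in *msil2/4* and at 3.98 and 4.07 RPKM in Col-0. It followed *MCM2* closely in every library. The log2 difference was 1.53 (standard error 0.42).

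*PCNA1*, on chromosome 1 from 2263037 to 2264553 (plus strand), was at 14.84 and 27.3 RPKM in *msil2/4* and at 6.82 and 5.82 RPKM in Col-0. The means were 21.1 ± 8.81 RPKM in *msil2/4* and 6.32 ± 0.707 RPKM in Col-0 (SD, n = 2 each). The genotypes did not overlap, and replicate 2 of the mutant was again the highest library. Its log2 difference was 1.54 (standard error 0.41).

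*RPA1B*, which encodes a large subunit of RPA, on chromosome 5 from 2571957 to 2575061 (plus strand), was at 2.95 and 5.97 RPKM in *msil2/4* and at 1.19 and 0.98 RPKM in Col-0. It had the lowest level of the 6 genes in every library. Its log2 difference was 1.33 (standard error 0.40), and it is the member on which the added constant of 1 weighs most. Without that constant its log2 difference was 1.96. The ratio of its mean RPKM values was 4.11, the highest of the 6. The study describes a filter on transcripts under 1 RPKM in a library, yet *RPA1B* was below 1 RPKM in Col-0 replicate 2, as were 57 other genes of the up-regulated table in at least 1 library.

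*RPA1D*, which encodes another large subunit, on chromosome 5 from 24549479 to 24552855 (minus strand), was at 5.12 and 8.77 RPKM in *msil2/4* and at 2.08 and 1.62 RPKM in Col-0. The log2 difference was 1.44 (standard error 0.38). In Arabidopsis genetics, *RPA1B* and *RPA1D* have been tied to DNA replication, while *RPA1A*, *RPA1C* and *RPA1E* have been tied to meiosis and DNA repair.

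*RPA2A*, which encodes the middle subunit and is also known as *ROR1* from its part in transcriptional gene silencing, lies on chromosome 2 from 10397377 to 10400802 (minus strand). It was at 15.05 and 20.96 RPKM in *msil2/4* and at 5.57 and 4.88 RPKM in Col-0, a log2 difference of 1.59 (standard error 0.34). Its mutant replicates were the closest together of the 6 genes. Of the 1897 bases of its longest annotated transcript, 30.7% overlap exons of AT2G24480 on the opposite strand. Both library kits named for the study keep strand, but whether the counting used it is not given in the sources used here, so reads of the 2 genes may not have been told apart. For *MCM7* and *RPA1B* the overlap with exons of a gene on the opposite strand was 0.806% and 1.72% of the transcript, and *MCM2*, *PCNA1* and *RPA1D* overlapped no other gene.

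For all 6 genes both *msil2/4* libraries lay above both Col-0 libraries, as did 98.7% of the 156 genes of the up-regulated table. The lowest *msil2/4* library was at least 2 times the highest Col-0 library for all 6, with ratios from 2.18 for *PCNA1* to 2.70 for *RPA2A*, and so it was for 94.2% of the table. Since entry to the up-regulated table rested on this contrast, nothing is read from these counts. The 6 differences were close to each other, from 1.33 to 1.59 with a median of 1.50, and small for the table, whose 156 genes had a median of 2.03. By size of the difference they stood between places 131 and 152 of 156. By the ratio of the authors' own values per genotype they stood between places 118 and 145. For all 6 the authors' value was below the mean of the libraries in *msil2/4* and above it in Col-0. Of the 6, *PCNA1* was the closest to the authors' limit of 2.83-fold, with authors' values of 19.6 RPKM for *msil2/4* and 6.69 RPKM for Col-0. *RPA1B* was the farthest from that limit, with 4.15 and 1.15 RPKM. Genes just outside the limit were not analysed here.

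**Figure D1:**
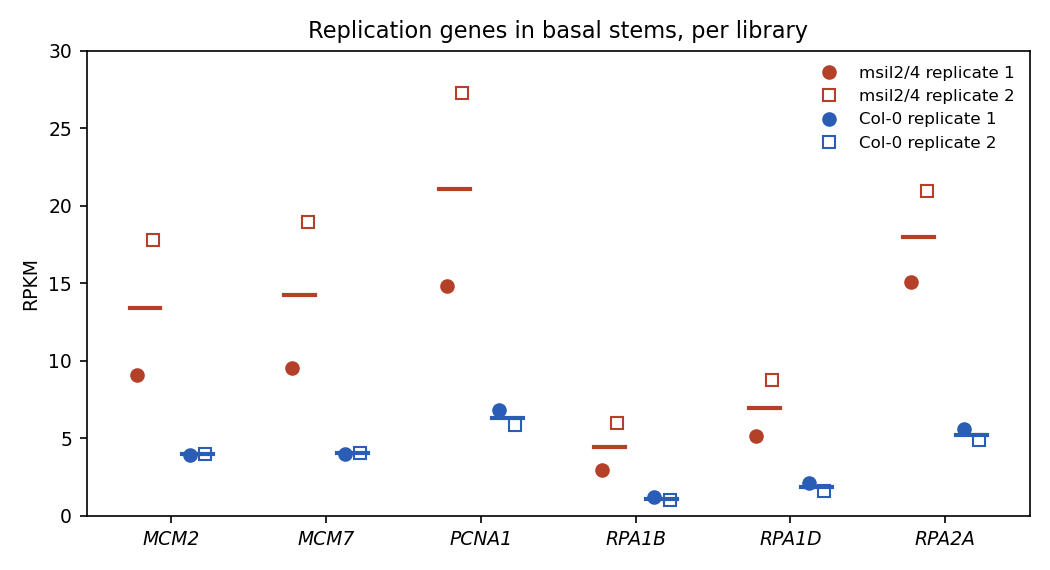
RPKM of the 6 genes in each of the 4 libraries, with *msil2/4* in red to the left of Col-0 in blue. Circles are replicate 1, squares replicate 2 and short lines the mean of 2 libraries. In each gene both *msil2/4* values lie above both Col-0 values, and replicate 2 is the higher *msil2/4* library.

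**Figure D2:**
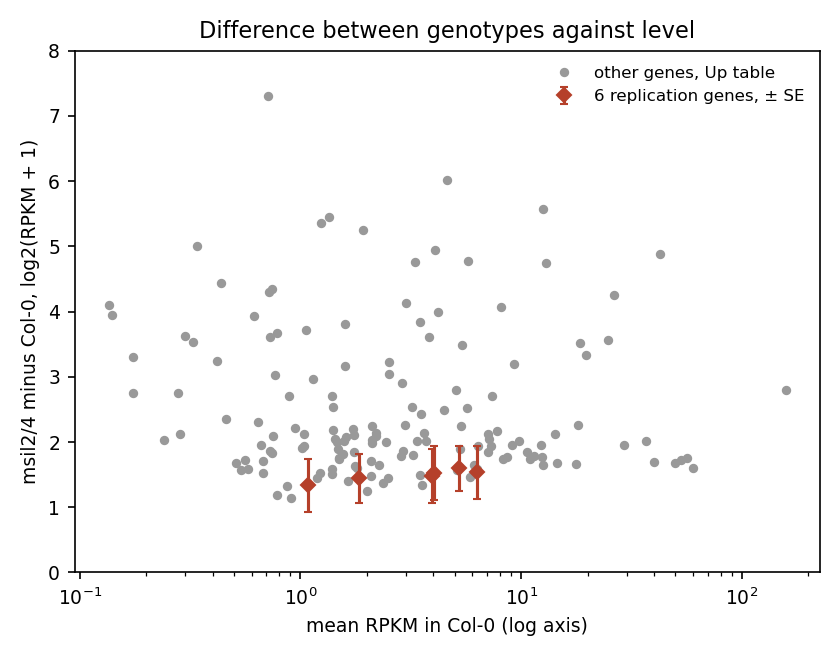
Difference between genotypes on the log2(RPKM + 1) scale against the mean RPKM in Col-0 (log axis) for the 156 genes of the up-regulated table. Diamonds are the 6 replication genes with their standard errors, and dots are the other 150 genes. The 6 lie between 1.33 and 1.59, in the lower part of the table's range of 1.13 to 7.31.

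The other replication genes that were looked up were in neither table. Of 57 genes in 8 lists covering the MCM2-7 helicase, the clamp and its loader, RPA, origin recognition and licensing, origin firing, polymerases and primase, Okazaki fragment maturation and nucleotide supply, the 6 described here were in the up-regulated table, none was in the down-regulated table, and 51 were in neither. Among MCM genes, *MCM3*, *MCM4*, *MCM5* and *MCM6*, which encode the other 4 subunits of the same ring, were in neither table. *PCNA2*, which encodes the other clamp protein, and the RPA genes *RPA1A*, *RPA1C*, *RPA1E*, *RPA2B*, *RPA3A* and *RPA3B* were also absent. None of the 11 genes of origin recognition and licensing, of the 11 genes of polymerases and primase, of 6 E2F, DP and retinoblastoma-related genes, of 7 genes of cyclins and kinases of cell cycle entry or of 8 DNA damage response genes was in a table. The 6 were chosen for being in the up-regulated table, so their count was set in advance. Both tables together hold 234 genes, against 27443 protein-coding genes in the annotation. Most genes of any list would therefore be in neither, and an absent gene was not shown to be unchanged. A change below 2.83-fold, the authors' limit, would not bring it in.

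The promoters were searched because several replication genes are known E2F targets. All 6 genes were higher in the double mutant, but that shared rise was set by their choice from the up-regulated table. Whether they share a regulator was not tested. The 120 bases before each annotated gene start are given from the TAIR10.1 sequence (RefSeq), 5′ to 3′ on the strand of the gene. Capitals mark matches to the motifs named after them.
*MCM2* (chr1:16970094-16970213, plus): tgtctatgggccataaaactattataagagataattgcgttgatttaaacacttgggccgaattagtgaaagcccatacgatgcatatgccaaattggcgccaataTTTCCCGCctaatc
*MCM7* (chr4:900516-900635, plus): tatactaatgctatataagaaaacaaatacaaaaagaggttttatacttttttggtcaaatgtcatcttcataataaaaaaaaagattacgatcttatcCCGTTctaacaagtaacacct
*PCNA1* (chr1:2262917-2263036, plus): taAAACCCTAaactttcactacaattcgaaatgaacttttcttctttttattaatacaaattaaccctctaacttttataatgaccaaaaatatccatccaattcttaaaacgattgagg
*RPA1B* (chr5:2571837-2571956, plus): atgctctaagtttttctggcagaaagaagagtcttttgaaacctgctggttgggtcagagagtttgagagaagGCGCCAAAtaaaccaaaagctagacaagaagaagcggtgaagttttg
*RPA1D* (chr5:24552856-24552975, minus): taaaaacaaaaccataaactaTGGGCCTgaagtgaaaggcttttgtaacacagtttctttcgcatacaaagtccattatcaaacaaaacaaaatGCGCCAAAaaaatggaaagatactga
*RPA2A* (chr2:10400803-10400922, minus): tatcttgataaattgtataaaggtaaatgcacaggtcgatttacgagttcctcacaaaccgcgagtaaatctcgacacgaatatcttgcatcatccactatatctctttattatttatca

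The E2F-type motif was taken as TTTCCCGC, TTTCGCGC, TTTGCCGC or TTTGGCGC on either strand, in a window from 250 bases before to 50 bases after the start. It was found in 3 of the 6 windows. *MCM2* had TTTCCCGC, beginning at position -14 from the start, and *RPA1B* and *RPA1D* had GCGCCAAA, the reverse complement of TTTGGCGC, beginning at positions -47 and -26 from it. In the same window 1.76% of 27443 protein-coding genes held such a match, as did 1 of 149 protein-coding genes among the others in the up-regulated table (0.671%) and 1 of 76 in the down-regulated table (1.32%). Of the 51 replication genes in neither table, 18 held one (35.3%), with *MCM3*, *MCM4*, *MCM5* and *MCM6* among them. Matches were thus present both in the replication genes of the up-regulated table and in replication genes outside the tables.

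*MCM7*, *PCNA1* and *RPA2A* had no E2F-type match. With the first T left off, *PCNA1* gained 1, the reverse complement GCGGGAA beginning at base 18 of the transcript, shown in capitals in ctagcgcattgGCGGGAAccaaatagctt (chr1:2263043-2263071, plus). In that form the motif was present in 4 of the 6 windows and in 3.63% of all protein-coding genes. Among the 4 was *MCM2*, whose printed bases also hold the shorter form as TTGGCGC and as its reverse complement GCGCCAA. Every match to the longer form also holds the shorter one.

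Another 3 motifs known from plant cell cycle and growth genes were searched on both strands. The telo box AAACCCTA was found only in *PCNA1* among the 6, beginning at position -118, and in 6.22% of all windows. Site II was searched only as TGGGCCC or TGGGCCT. In these forms it was found only in *RPA1D* among the 6, beginning at position -99, and in 10.7% of all windows. Shorter forms such as TGGGCC alone were not searched, and TGGGCC occurs in the bases printed for *MCM2*. AACGG, the core of the mitosis-specific activator element, was found in *MCM7* as its reverse complement, beginning at position -21, and in 24.7% of all windows. No matches of different motifs overlapped in the 6 windows. *RPA2A* had none of the 4 motifs in the forms searched. A match is a description of the letters, and a window without one says nothing of the factors that act there.

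**Figure D3:**
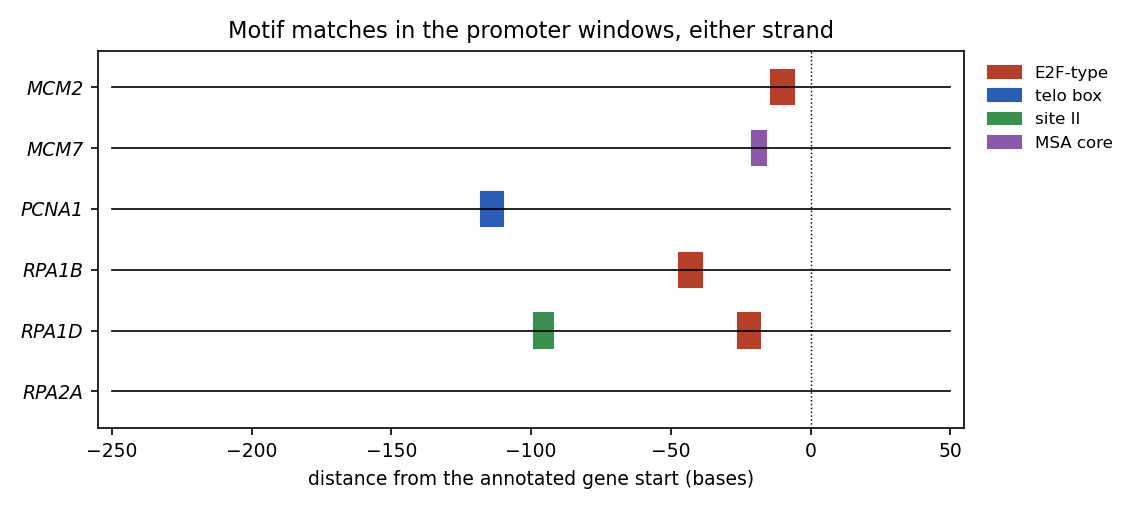
Position of motif matches in the promoter windows of the 6 genes, in bases from the annotated gene start (dotted line), on either strand. The E2F-type matches of *MCM2*, *RPA1B* and *RPA1D* lie within 50 bases before the start.

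**Figure D4:**
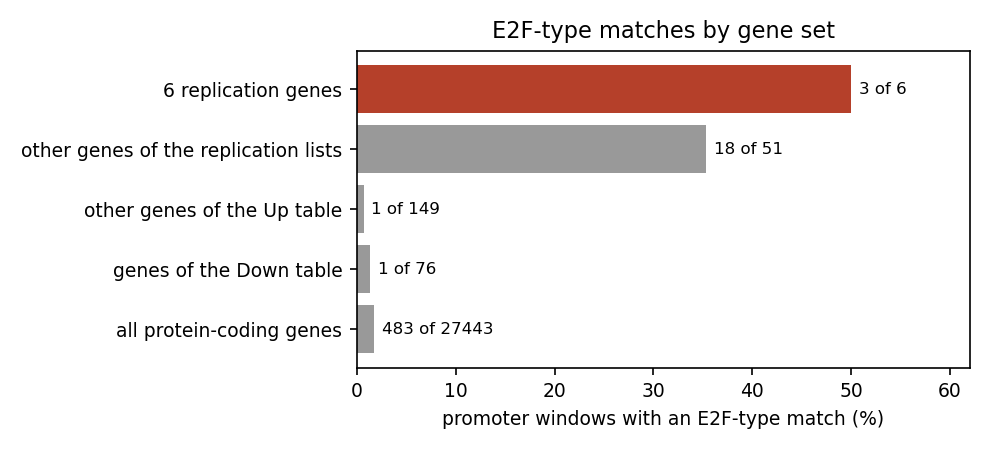
Share of promoter windows with an E2F-type match (percent) in 5 gene sets, with the counts beside the bars. It was 3 of 6 in the genes described here, 18 of 51 in the other replication genes, 1 of 149 and 1 of 76 in the other genes of the tables, and 483 of 27443 in all protein-coding genes, a set that contains the others.

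Levels in *msil2/4* and in Col-0 followed nearly the same order. *RPA1D* and *RPA1B* were the fifth and the sixth in every library, *MCM7* and *MCM2* came before them, and *PCNA1* and *RPA2A* came first. *PCNA1* was the highest in *msil2/4* replicate 2 and in both Col-0 libraries, while *RPA2A* was slightly higher in *msil2/4* replicate 1, at 15.05 against 14.84 RPKM, so the order of these neighbours is not settled. *MCM7* was above *MCM2* in all 4 libraries, by a small margin. The margin was less than the spread between replicates in *msil2/4*, but both genes shared that spread, at 1.98-fold and 1.97-fold.

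The genes were selected for a rise in *msil2/4*, which by itself narrows the ratios between them across genotypes, so the ratios are given as a description. The level of *MCM2* relative to that of *MCM7* was 0.949 and 0.940 in the *msil2/4* libraries and 0.985 and 0.978 in the Col-0 libraries. The highest of these ratios was 1.05 times the lowest. *RPA1B* stood at 0.576 and 0.681 of *RPA1D* in *msil2/4* and at 0.572 and 0.605 in Col-0. Among the 3 RPA genes with values, *RPA2A*, for the middle subunit, was at 1.86 and 1.42 times the sum of *RPA1B* and *RPA1D* in *msil2/4*, against 1.70 and 1.88 times in Col-0. *PCNA1* relative to *MCM7* was 1.56 and 1.44 in *msil2/4* and 1.71 and 1.43 in Col-0. The ratio of *MCM2* to *MCM7* was thus the steadiest of those computed. The ratios of *PCNA1* to *RPA2A* and of *RPA2A* to the sum of both large subunits varied most. In each the highest value was 1.32 times the lowest. Both include *RPA2A*, whose reads may not have been told apart from those of AT2G24480.

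The direction of the difference between replicates of one genotype was not used in choosing the genes, although its size entered the test of the authors. In *msil2/4*, replicate 2 was above replicate 1 for all 6 genes, by 1.98-fold for *MCM7*, 1.97-fold for *MCM2*, 2.02-fold for *RPA1B*, 1.84-fold for *PCNA1*, 1.71-fold for *RPA1D* and 1.39-fold for *RPA2A*. The median log2 difference between the mutant replicates was 0.83 for the 6 genes. It was 0.05 for the other 150 genes of the table, of which 79 were higher in replicate 2. Regardless of sign, the median size was 0.83 for the 6 genes and 0.40 for the other 150. In Col-0 the same 6 genes differed less between replicates. Their log2 differences, replicate 2 minus replicate 1, ran from -0.23 for *RPA1D* to 0.03 for *MCM7*, and the median size was 0.15, against 0.43 for the other 150 genes. *MCM2* and *MCM7* had the third and the fifth smallest gap between Col-0 replicates in the table. Differences between the mutant replicates of at least the lowest member's were seen in 42 of the other 150 genes, and 2 of the 150 fell within the members' ranges in both genotypes, ranges that were set by the members themselves. With 2 libraries of a genotype, what sets *msil2/4* replicate 2 apart cannot be told from these values and was not tested.

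**Figure D5:**
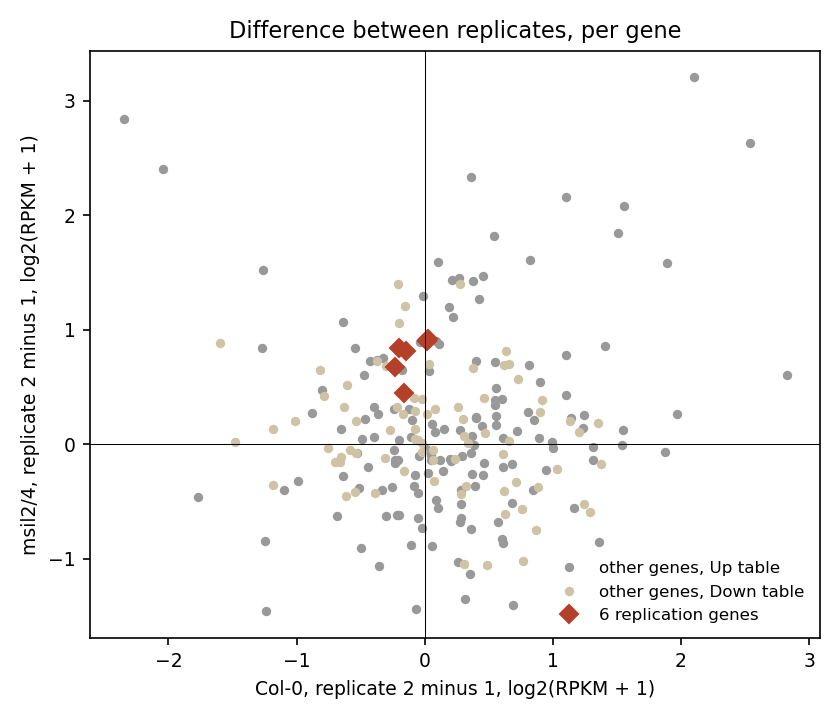
Replicate 2 minus replicate 1 on the log2(RPKM + 1) scale, in Col-0 on the horizontal axis and in *msil2/4* on the vertical axis, for 234 genes. Diamonds are the 6 replication genes, which lie together near 0 in Col-0 and between 0.45 and 0.92 in *msil2/4*. Dots are the other genes of both tables.

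The size of the difference between genotypes accordingly depended on the mutant library used. The median over the 6 genes was 1.87 without *msil2/4* replicate 1 and 1.09 without *msil2/4* replicate 2. For *RPA1B* alone the value without *msil2/4* replicate 2 was 0.92. Leaving out a Col-0 library moved the median only to 1.54 or 1.46.

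The counting error is unknown, because the tables hold no read counts. If all of the 30000000 reads that the labels state per library had mapped, the 0.98 RPKM of *RPA1B* in Col-0 replicate 2 would stand for 63.1 reads and the 17.8 RPKM of *MCM2* in *msil2/4* replicate 2 for 1685 reads. The study calls the replicates biological, but the labels do not say which plants went into each. In RNA from whole stem sections, more replicating cells and more RNA per cell cannot be told apart.

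The genes whose values over the 4 libraries were most like the mean of the 6, by Euclidean distance of log2(RPKM + 1) values centred on each gene's own mean, could only come from the up-regulated table, since the profile of the 6 was selected to rise in *msil2/4*. The nearest was AT5G46730, annotated as a glycine-rich protein gene, at a distance of 0.142, with 4.73 and 8.01 RPKM in *msil2/4* and 1.53 and 1.24 RPKM in Col-0. AT1G10657, a gene of unknown function, was at a distance of 0.178 with 6.04 and 11.9 RPKM in *msil2/4* and 2.35 and 2.61 RPKM in Col-0. AT1G19830 (*SAUR54*), AT3G20440 (*SBE3*) and AT5G12900 (*IRKI*) followed at 0.287, 0.294 and 0.299. The members themselves were at distances from 0.0914 for *PCNA1* to 0.250 for *RPA2A*, as parts of that mean. Likeness over 4 libraries is a description and says nothing of shared function.

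Markers of cells that a stem section can hold were looked up in the same way. None of 21 was in a table, among them the mitosis and cytokinesis genes *CYCB1;1*, *CYCB1;2*, *CDKB2;1*, *CDKB2;2* and *KNOLLE*, the cambium genes *WOX4*, *PXY*, *ATHB8* and *ANT*, and the meristem genes *STM*, *WUS* and *CLV3*. *MSIL2* and *MSIL4* were not in the tables either, so the genotype labels could not be checked from the values used here. The levels of these genes were not analysed here, and whether the makeup of the sections differed between genotypes was not tested. Both tables together hold 234 genes, against 27443 protein-coding genes in the annotation, so most genes of any list would be in neither.

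The proteins of the 6 genes differ in how close a relative they have, which bears on whether short reads can be assigned. In the translated reference annotation, PCNA1 (263 residues) and PCNA2 (264 residues) were 97.0% identical, and RPA1B (604 residues) and RPA1D (629 residues) were 84.7% identical. RPA1B was 33.9% to 36.0% identical to RPA1A, RPA1C and RPA1E, RPA2A was 40.2% identical to RPA2B, and MCM2 was 35.1% identical to MCM7. Within the ring, the closest relative of MCM2 was MCM6, at 36.6%, and that of MCM7 was MCM3, at 38.4%. No stretch of 75 bases, the read length, was shared with an annotated transcript of another gene by *MCM2*, *MCM7*, *PCNA1*, *RPA1B* or *RPA1D*. For *RPA2A*, 510 of 1823 such stretches were shared, all of them with AT2G24480, the overlapping gene on the opposite strand. Reads with mismatches were not considered.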

How the data were processed

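Messenger RNA was measured in 2 *msil2/4* and 2 Col-0 stem libraries, grouped by the sample labels. Per the labels and the paper, the authors aligned reads to TAIR10 with TopHat2 2.0.7 and Bowtie2 2.3.4, quantified with Cufflinks 2.2.1 and compared genotypes with Cuffdiff, whose version is not given in the sources used here. Deposited were RPKM values that the authors computed per library and per genotype, for the genes past their limits. The log2 fold changes deposited beside them are the authors' own comparison and were not used.

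Differences and standard errors came from limma 3.58.1 (R 4.3.3), fitted to log2(RPKM + 1) over all 234 genes with no filter and tested on simulated data. The prior, 3.27 degrees of freedom, rests on genes that had been selected on this contrast. No p-value is given. The genes, lists, motifs and tests were chosen with earlier results of these data known. The rule for values named the 6 genes, list members in a table and the 5 genes nearest to their mean profile. Other list members are named only as being in neither table or for their sequences. All 99 list loci were found in the TAIR10.1 annotation (RefSeq), from which coordinates and sequences came. The authors' tables carry no coordinates. Translated proteins were aligned globally with Biopython 1.88 under Python 3.11.15. Alternatives were other pseudocounts, an RPKM filter, rescaling to the authors' values, the up-regulated table alone, a replicate block, each library left out, a wider gap and other motif settings.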

Additional observations from a re-analysis of the deposited data

How the results depend on the processing

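The median log2 difference of the 6 genes, 1.50 with a median standard error of 0.40, stayed positive under every alternative run. Since the 6 were chosen for a rise in *msil2/4*, that sign was set in advance. The median was 1.73 with a pseudocount of 0.1, 1.75 with none and 1.33 after rescaling to the authors' values per genotype. It was 1.53 over the 5 genes with at least 1 RPKM in all 4 libraries and 1.50 in the up-regulated table alone. With each library left out in turn it ranged from 1.09 without *msil2/4* replicate 2 to 1.87 without *msil2/4* replicate 1. In those fits the lone library of a genotype was assumed to vary like the others. All single-gene values ran from 0.92 to 1.99, their positive sign again set by the choice of genes. The counts of genes with both *msil2/4* libraries above both Col-0 libraries and of E2F-type matches moved by no more than 1 gene. The replicate numbers are not said to mark a shared batch, and over 234 genes the replicate differences of the 2 genotypes had a correlation of 0.07. With the number as a replicate block the median was again 1.50, with a standard error of 0.51. What depth limits cannot be computed, since no counts were used here.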
